A study of Saccharomyces cerevisiae with 9 samples.

Results

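The heme genes described here are 10 genes of baker's yeast, Saccharomyces cerevisiae, taken by name from the annotation of the array: the 8 enzymes of heme synthesis in pathway order (HEM1, HEM2, HEM3, HEM4, HEM12, HEM13, HEM14 and HEM15), the heme oxygenase HMX1 and the porphyrin transporter PUG1. They are 10 of 5656 named genes, each read by 1 probe set, and 9 of them were bright enough to be tested. All cells lacked chromosomal CTH1 and CTH2 and carried the plasmid pRS416 with CTH2 (the CTH2 group, cth1CTH2 in the titles), with CTH1 (the CTH1 group, CTH1cth2) or with no insert (the vector group, cth1cth2), with 3 arrays per group and 9 in all. Every culture grew at 30 °C for about 6 hours in SC-Ura medium with 100 µM BPS (bathophenanthroline disulfonate), an iron chelator, so no iron-replete sample was compared. pRS416 is a low-copy plasmid selected by the absence of uracil. The labels name no promoter for the inserts. They leave unsaid whether the 3 replicates of a group were separate transformants, so the p-values measure the spread between these samples, which may be technical.

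Heme is an iron-bearing ring that carries oxygen chemistry and electrons in cytochromes, catalases and sterol enzymes. Its synthesis in yeast starts in the mitochondrion with Hem1, continues in the cytosol with Hem2, Hem3, Hem4, Hem12 and Hem13, and ends in the mitochondrion, where Hem14 makes protoporphyrin and Hem15 inserts the iron. Hmx1 opens the ring and frees the iron again, and HMX1 is a gene of the regulon that the iron-responsive factor Aft1 turns on when iron is scarce. Cth1 and Cth2 are zinc finger proteins that recognise AU-rich elements, and Cth2 promotes the decay of mRNAs that carry them. The design asks which mRNAs differ when one of these proteins is put back during iron limitation.

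In the cells with CTH2, the mRNA of the ferrochelatase HEM15 fell 2.40-fold relative to the vector cells. HEM15 was the single heme gene that passed the test, where 0.287% of all tested genes passed. That call was lost under 7 of 18 alternatives. HEM1, HEM4, HEM13 and HMX1 had values 1.51- to 1.84-fold lower with CTH2, without passing. The dim PUG1 read 111 to 214 with CTH2 and 40.5 to 101 with the empty vector. It was bright enough to be tested only through the plasmid groups, so this difference is no support. With CTH1, 0 of the 9 tested heme genes passed, where 0% of all tested genes did, the CTH1 gene itself not being tested. HEM2 and HEM12 had values above 0 with CTH2, of 0.27 and 0.46 on the log2 scale, with 95% intervals that include 0.

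**Figure D1:**
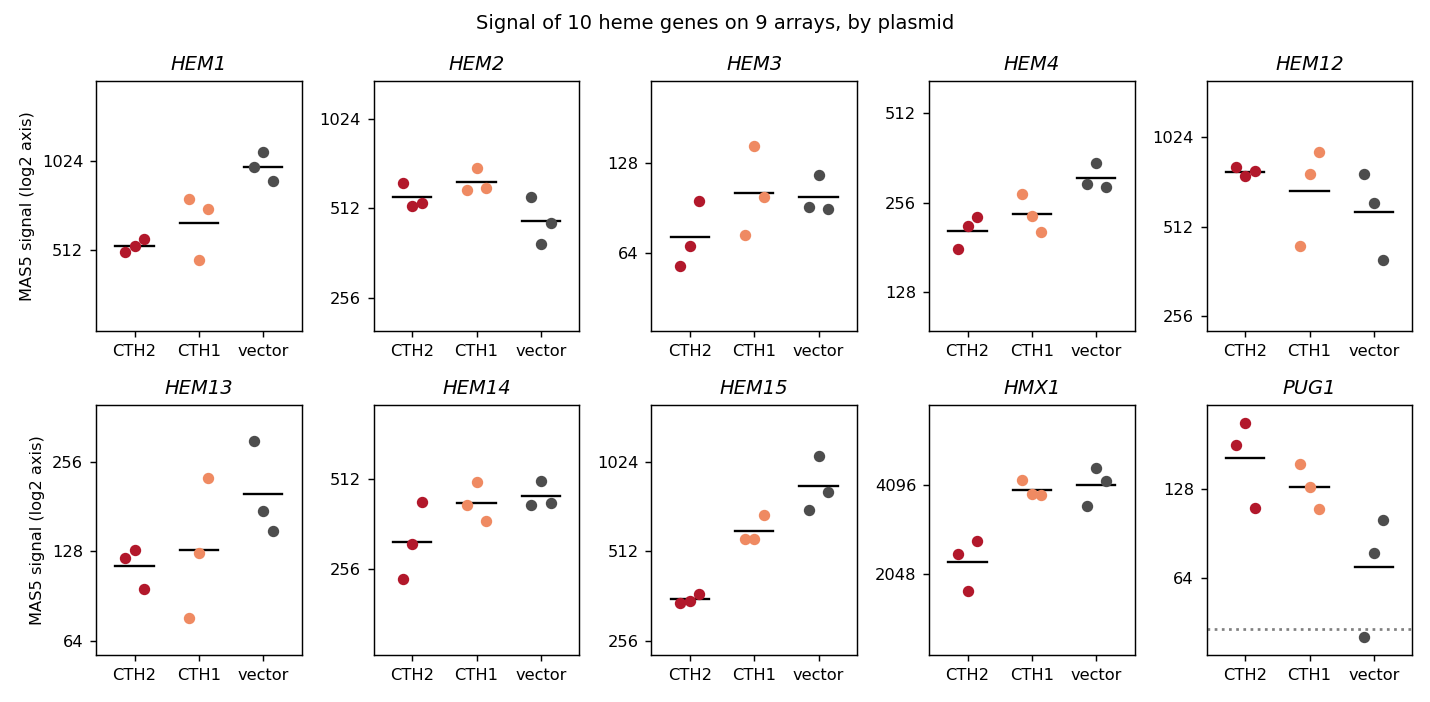
MAS5 signal of the 10 heme genes on each of the 9 arrays, on log2 axes that differ between panels, by plasmid (CTH2, CTH1 and vector, 3 arrays each). Points are arrays, bars are geometric means after the floor, and the dotted line in the PUG1 panel is the floor of 43.2. In the HEM15 panel the 3 groups do not overlap, at 342 to 369 with CTH2, 563 to 677 with CTH1 and 705 to 1071 with the empty vector.

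Signals are the authors' MAS5 probe set values on a linear scale, scaled by them so that the mean without the outer 2% at each end was 500.4 to 500.6 on each array. Differences are log2 values from limma, with their standard error (SE), and a gene was called at a Benjamini-Hochberg adjusted p under 0.05 over all 4537 tested genes. The inserts matched the labels on every array. CTH2, listed under its standard name TIS11, read at least 3389 on each array that carried it and at most 10.2 on the 6 others. CTH1 read at least 231 on each array that carried it and at most 14.3 on the 6 others. Ribosomal RNA signal moved with the CTH2 group: a 25S probe set averaged 665 ± 324 with CTH2, 3308 ± 2947 with CTH1 and 3818 ± 722 with the empty vector (SD, n = 3 each), and its part in the results was not tested. CTH1 replicate 3 stood apart in short mRNAs, whose median deviation minus that of long ones was -0.68 on that array and -0.07 to 0.21 on the other 8. The heme genes have coding lengths of 828 to 1647 nucleotides, above the 400 that bounds that short class. The ratio of 3' to 5' control probe sets, a check of RNA integrity, was 0.91 to 1.64 for ACT1. For SPT15 it ran from 1.04 to 4.70, and both ends were vector arrays, replicates 2 and 1. The part of RNA integrity in the results was not tested. RNA came from whole cultures, so fewer cells with an mRNA and less of it per cell cannot be told apart.

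The last step of the pathway showed the clearest separation. HEM15 (YOR176W), the ferrochelatase that puts iron into protoporphyrin, had signals of 342, 349 and 369 in the CTH2 arrays, 563, 565 and 677 in the CTH1 arrays and 705, 1071 and 813 in the vector arrays. Every CTH2 array lay below every CTH1 array, and every CTH1 array below every vector array. The difference was -1.27 for CTH2 against vector (SE 0.21, limma adjusted p = 0.028), the value at rank 6 from the lowest of 4537. Among all tested genes 0.287% were called in this comparison. For CTH1 against vector the difference was -0.50 (SE 0.21, limma adjusted p = 0.71). The direct comparison of CTH2 against CTH1 gave -0.76 (95% interval -1.21 to -0.31, limma adjusted p = 0.39), so the plasmids were not shown to differ over all genes. The order CTH2 below CTH1 below vector, with no overlap between any pair of groups, was found for 0.242% of all tested genes and for HEM15 alone among the 9. The CTH2 group also had the tightest HEM15 signals, 353 ± 14.0, against 602 ± 65.3 with CTH1 and 863 ± 188 with vector (SD, n = 3 each).

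The HEM15 call for CTH2 against vector was lost when vector replicate 2 or 3 or any CTH2 array was left out. It held without vector replicate 1 (limma adjusted p = 0.040) and without any CTH1 array (0.019 to 0.047). Without vector replicate 2 the difference was -1.10 and without vector replicate 3 it was -1.30, with limma adjusted p of 0.14 and 0.11. Without CTH2 replicate 1, 2 or 3 it was -1.24, -1.26 and -1.30, with limma adjusted p of 0.14, 0.15 and 0.089. The call was also lost with no limit on dim genes, at a limma adjusted p of 0.078, and with the replicate number as a block, at 0.11, with the difference at -1.27 in both fits. In the fits that lost the call, 0.022% to 0.0441% of all genes were called, against 0.287% in the fit described above.

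HEM1 (YDR232W) encodes aminolevulinate synthase, which makes the first pathway intermediate from glycine and succinyl-CoA. Its signals were 507, 530 and 558 in the CTH2 arrays, 761, 475 and 704 in the CTH1 arrays and 978, 1097 and 875 in the vector arrays. Both plasmid groups lay wholly below the vector group, and the CTH1 arrays overlapped the CTH2 arrays on both sides. The difference was -0.88 for CTH2 against vector (SE 0.22, limma adjusted p = 0.14) and -0.63 for CTH1 against vector (SE 0.22, limma adjusted p = 0.65). CTH2 against CTH1 gave -0.25, with a 95% interval of -0.72 to 0.21.

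HEM2 (YGL040C), the zinc enzyme that joins 2 aminolevulinate molecules into porphobilinogen, had values above 0 against vector that did not pass. It had signals of 624, 521 and 535 in the CTH2 arrays, 589, 699 and 601 in the CTH1 arrays and 557, 388 and 458 in the vector arrays. All CTH1 arrays lay above the vector arrays, while the CTH2 arrays overlapped them. The difference was 0.27 for CTH2 (SE 0.20, limma adjusted p = 0.73) and 0.44 for CTH1 (SE 0.20, limma adjusted p = 0.71), each against vector.

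HEM3 (YDL205C), porphobilinogen deaminase, was the member left out of the test for its low signal. It read 57.7, 67.5 and 95.7 in the CTH2 arrays, 73.5, 146 and 98.4 in the CTH1 arrays and 91.0, 117 and 89.7 in the vector arrays, and all groups overlapped. Its geometric mean of 89.7 was just under the limit of 98.4, and PUG1, at 114, was the dimmest of the 9 heme genes above it. In a fit with no limit on dim genes the HEM3 difference for CTH2 against vector was -0.45 (SE 0.28, limma adjusted p = 0.67).

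HEM4 (YOR278W), uroporphyrinogen III synthase, closes the ring. Its signals were 179, 213 and 229 in the CTH2 arrays, 273, 230 and 203 in the CTH1 arrays and 297, 348 and 288 in the vector arrays. The vector arrays lay above all 6 arrays with an insert. The difference was -0.59 for CTH2 (SE 0.21, limma adjusted p = 0.40) and -0.41 for CTH1 (SE 0.21, limma adjusted p = 0.74), each against vector.

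HEM12 (YDR047W), uroporphyrinogen decarboxylase, acts next, after the branch to siroheme. It had signals of 813, 756 and 788 in the CTH2 arrays, 439, 773 and 913 in the CTH1 arrays and 771, 614 and 395 in the vector arrays. The CTH2 arrays agreed closely, at 786 ± 28.3, while the other groups spread widely, at 709 ± 243 with CTH1 and 593 ± 189 with vector (SD, n = 3 each). The difference was 0.46 for CTH2 against vector, with a 95% interval of -0.19 to 1.10, and 0.24 for CTH1 against vector, with -0.40 to 0.89. Without vector replicate 3 these were 0.19 and -0.024, and the CTH1 value was 0.028 without CTH1 replicate 3 and 0.56 without CTH1 replicate 1.

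HEM13 (YDR044W), coproporphyrinogen oxidase, uses oxygen, and its gene is known to be turned up when heme or oxygen is short. Its signals were 121, 130 and 95.4 in the CTH2 arrays, 76.1, 127 and 225 in the CTH1 arrays and 301, 175 and 150 in the vector arrays. No CTH2 array reached the lowest vector array, and the CTH1 arrays ran from under the lowest CTH2 array into the range of the vector arrays. The difference was -0.80 for CTH2 against vector, with a wide 95% interval of -1.61 to 0.01 (limma adjusted p = 0.55), and -0.62 for CTH1 against vector, with -1.43 to 0.19. Without vector replicate 1 these were -0.50 and -0.32, and the CTH1 value was -0.24 without CTH1 replicate 1 and -1.02 without CTH1 replicate 3.

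HEM14 (YER014W), protoporphyrinogen oxidase, supplies the substrate of Hem15. It read 236, 311 and 429 in the CTH2 arrays, 420, 502 and 372 in the CTH1 arrays and 419, 508 and 426 in the vector arrays. CTH2 replicate 3 lay within the vector range and the other 2 CTH2 arrays lay under it. The difference was -0.51 for CTH2 (SE 0.24, limma adjusted p = 0.55) and -0.07 for CTH1 (SE 0.24, limma adjusted p = 0.96), each against vector. The CTH2 value was -0.30 without CTH2 replicate 1, and the CTH1 value was 0.031 without CTH1 replicate 3, 0.018 without vector replicate 2, -0.12 without vector replicate 1, -0.11 without vector replicate 3 and -0.19 without CTH1 replicate 2.

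HMX1 (YLR205C), which degrades heme, separated the CTH2 group from both others. Its signals were 2399, 1792 and 2656 in the CTH2 arrays, 4249, 3808 and 3777 in the CTH1 arrays and 3474, 4653 and 4227 in the vector arrays. All CTH2 arrays lay below all 6 other arrays, and the CTH1 arrays overlapped the vector arrays. The difference was -0.86 for CTH2 against vector (SE 0.20, limma adjusted p = 0.12) and -0.05 for CTH1 against vector (95% interval -0.49 to 0.38). For CTH2 against CTH1 it was -0.81 (SE 0.20, limma adjusted p = 0.30), at rank 26 from the lowest of all tested genes. HMX1 did not pass in these comparisons, and its CTH1 value against vector was 0.040 without vector replicate 2.

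PUG1 (YER185W), a plasma membrane protein that helps protoporphyrin in and heme out, was the one member with higher values under both plasmids and no overlap with vector. It read 180, 214 and 111 in the CTH2 arrays, 156, 129 and 110 in the CTH1 arrays and 40.5, 77.5 and 101 in the vector arrays. The plasmid groups overlapped each other, and 1 vector array lay under the floor of 43.2 and was set to it. The difference was 1.22 for CTH2 (SE 0.34, limma adjusted p = 0.19), rank 14 from the highest, and 0.91 for CTH1 (SE 0.34, limma adjusted p = 0.65), rank 10 from the highest, each against vector. Because the geometric mean of the vector arrays was 69.6, PUG1 entered the test through the plasmid groups and had to differ from vector to do so. It is left out of the counts of members set against all genes below. The counts under alternative processing, given last, include PUG1, and its call there with array weights is no support. The size of the PUG1 difference depended on the vector arrays and the scale. For CTH2 against vector it was 0.88 without vector replicate 1 and 0.71 with the floor at the 25th percentile. For CTH1 against vector these values were 0.56 and 0.39.

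**Figure D2:**
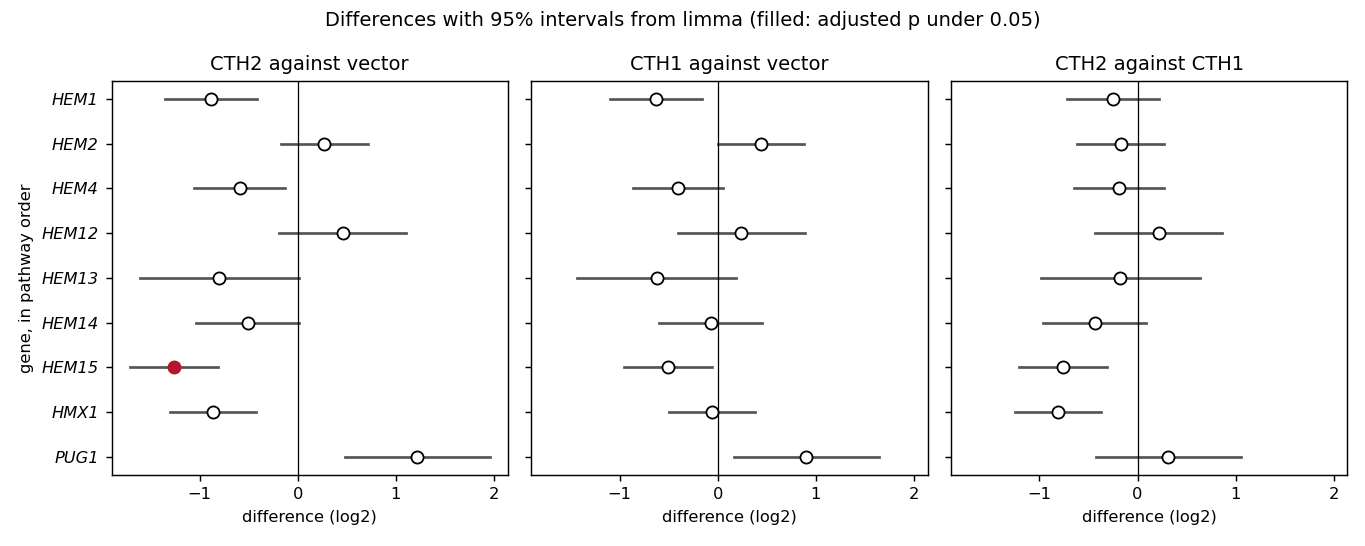
Differences (log2) of the 9 tested heme genes with 95% intervals from limma, in pathway order, for CTH2 against vector, CTH1 against vector and CTH2 against CTH1. The single filled point is HEM15 in CTH2 against vector at -1.27, and the CTH1 intervals of HEM14 and HMX1 are centred near 0.

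Set against all genes, and without PUG1, 1 of the 8 remaining tested members was called for CTH2 against vector (lower), beside 0.287% of all genes called. The unadjusted limma p was under 0.05 for 4 of the 8, HEM1, HEM4, HEM15 and HMX1, against 9.37% of all genes. The CTH2 arrays lay wholly below the vector arrays for 5 of them, HEM1, HEM4, HEM13, HEM15 and HMX1, where 6.99% of all genes did, and wholly above for 0, where 9.48% did. The median difference was -0.70 over the 8 members and 0.07 over all tested genes. Members and side lists were chosen with earlier results of these data known. These counts and those below are therefore a description and no test of the lists.

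With CTH1, limma called 0 of the 8 members and 0% of all tested genes, which do not include the inserted gene CTH1. An unadjusted limma p under 0.05 was reached by HEM1 and HEM15, against 6.92% of all genes. The CTH1 arrays lay wholly below the vector arrays for HEM1, HEM4 and HEM15, where 3.37% of all genes did, and wholly above them for HEM2, where 6.92% did. The median was -0.24 over the 8 members and 0.06 over all genes. Both comparisons use the same 3 vector arrays, so their values are not independent of each other.

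In the direct comparison of the plasmids, limma called 0 of the 8 members for CTH2 against CTH1, beside 0.022% of all genes. That share is 1 gene, the insert CTH2 itself. The unadjusted limma p was under 0.05 for HEM15 and HMX1, against 7.49% of all genes. For those genes the CTH2 arrays lay wholly below the CTH1 arrays, as they did for 7.19% of all genes. Of the 8, 0 lay wholly above, where 6.28% of all genes did. The 6 other members and PUG1 had differences of -0.44 to 0.31, with intervals that all include 0. The median over the 8 was -0.22, against 0.01 over all genes.

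**Figure D3:**
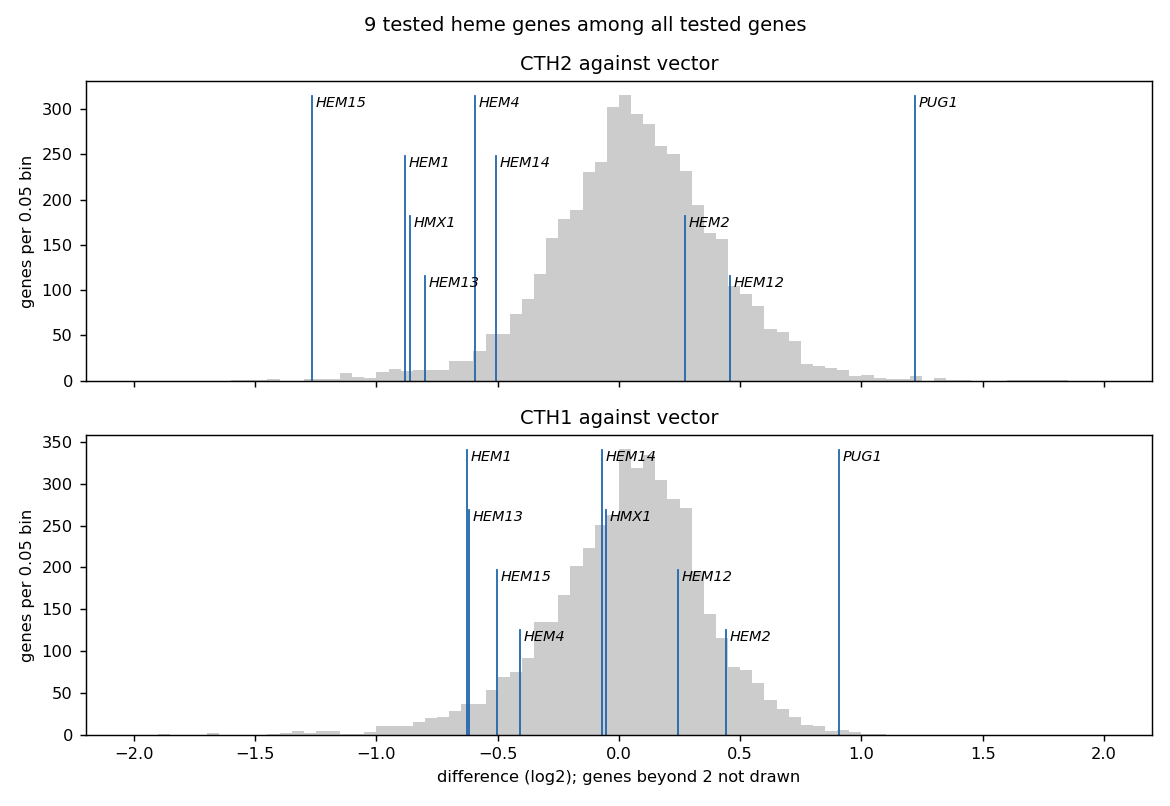
Number of tested genes per 0.05-wide bin of the difference (log2), for CTH2 against vector above and CTH1 against vector below, with the 9 tested heme genes marked by lines whose heights carry no value. With CTH2, HEM15 lies in the lower tail at rank 6 and PUG1 in the upper tail at rank 14, and HEM2 and HEM12 lie on the side above 0. PUG1 passed the limit on dim genes only through the plasmid groups, so its place is no support.

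Ratios of 2 probe sets within an array do not depend on how arrays were scaled. The ratios shown were chosen after the signals were seen and are given as a description, with no test: the last enzyme to the first, and the degrading enzyme to the first. The log2 ratio of HEM15 to HEM1 was -0.57, -0.60 and -0.60 in the CTH2 arrays, -0.43, 0.25 and -0.06 in the CTH1 arrays and -0.47, -0.04 and -0.11 in the vector arrays. The CTH2 arrays lay below the other 6, with a mean difference of -0.38 from vector. The log2 ratio of HMX1 to HEM1 was 2.24, 1.76 and 2.25 in the CTH2 arrays, 2.48, 3.00 and 2.42 in the CTH1 arrays and 1.83, 2.08 and 2.27 in the vector arrays. Here the CTH1 arrays lay above all others, by 0.57 on average over vector, and the CTH2 and vector arrays overlapped, with a mean difference of 0.02.

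**Figure D4:**
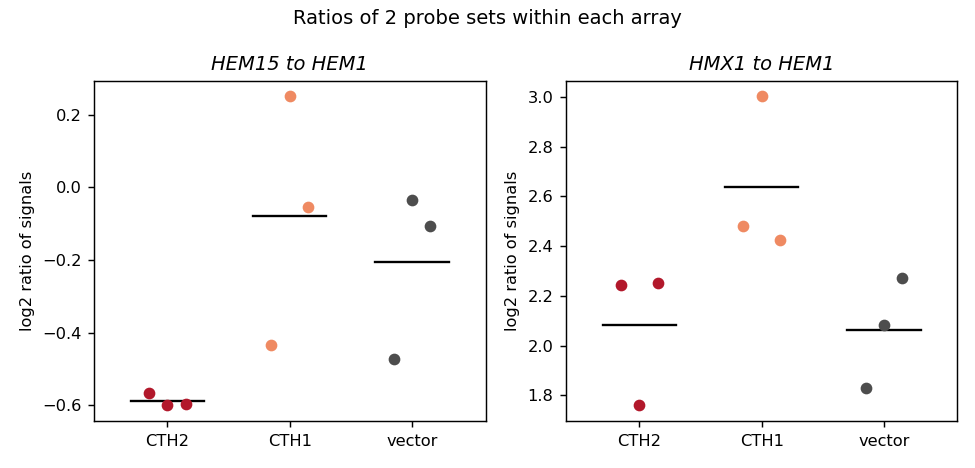
Log2 ratio of the signals of HEM15 to HEM1 (left) and HMX1 to HEM1 (right) within each array, by plasmid, with the group mean as a bar and axes that differ between panels. On the left the 3 CTH2 arrays sit at -0.60 to -0.57, and on the right the 3 CTH1 arrays sit at 2.42 to 3.00, above the other 6 arrays.

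The genes with profiles most like HEM15 over the 9 arrays were found by the root mean square distance between log2 profiles, each centred on its own mean. In order these were SLA2, an adaptor between actin and the endocytic coat (distance 0.13), ATG34, an autophagy receptor (0.20), the iron-sulfur enzyme aconitase ACO1 (0.21), RPM2, a subunit of mitochondrial ribonuclease P (0.22), and the membrane protein gene RCH1 (0.22). Against vector their differences with CTH2 were -1.02, -1.09, -1.49, -1.16 and -1.002, and with CTH1 -0.42, -0.30, -0.67, -0.54 and -0.29. The genes were picked for this likeness, which fixes the order of their groups. Among the heme genes, HMX1 (0.27) and HEM1 (0.29) were nearest to HEM15, and PUG1 (1.09) was the farthest.

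Around the pathway, 3 lists of genes were also counted: 7 genes for precursors, side branches and heme attachment, 14 for heme-binding proteins and 12 for regulators. Of their 29 tested members, 0 were called in each comparison, where 0.287%, 0% and 0.022% of all genes were called for CTH2 against vector, CTH1 against vector and CTH2 against CTH1, so the count is near the share over all genes. The unadjusted limma p was under 0.05 for 10, 5 and 8 of them, beside 9.37%, 6.92% and 7.49% of all genes. Those 8 include the heme-binding CYB2, whose mean signal was 85.1 with CTH1, 127 with CTH2 and 123 with vector. CYB2 passed the limit on dim genes only through the CTH2 and vector groups, so its differences from CTH1 are no support. Among the first list, all 7 were tested. COX10 and COX15, which convert heme to heme A for cytochrome oxidase, had differences of -0.57 (SE 0.24) and -0.54 (SE 0.23) for CTH2 against vector, with the CTH2 arrays wholly below. MET1, on the siroheme branch that shares the Hem4 product, had 0.64 (SE 0.25), with the CTH2 arrays wholly above, and the limma adjusted p of these genes was 0.47 to 0.50. With CTH1, COX10 (0.05) and COX15 (0.06) were close to the vector level, and for CTH2 against CTH1 COX15 differed by -0.60 (SE 0.23, limma adjusted p = 0.57). HEM25, a mitochondrial glycine carrier, had 0.27 with CTH2 and 0.14 with CTH1. The median of the list was -0.35 with CTH2 and 0.05 with CTH1.

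Of the 14 genes for heme-binding proteins 11 were tested, as the catalases CTA1 and CTT1 and the low-oxygen cytochrome c CYC7 were too dim. Their median was -0.55 for CTH2 against vector, with 7 wholly below the vector arrays, where 6.99% of all genes were, and 1 wholly above, where 9.48% were. The genes with the smallest p were SCS7, a sphingolipid hydroxylase with a cytochrome b5 domain (-1.07, SE 0.21), the cytochrome c1 gene CYT1 (-0.99, SE 0.24), the sterol demethylase ERG11 (-0.68, SE 0.19) and the cytochrome c peroxidase CCP1 (-1.14, SE 0.32), with limma adjusted p of 0.071 to 0.19. SCS7 read 919, 785 and 1146 in the CTH2 arrays, 1894, 1307 and 1316 in the CTH1 arrays and 1939, 2032 and 1938 in the vector arrays. For CTH1 against vector the median was -0.41, and CCP1 (-1.44, SE 0.32), the main cytochrome c gene CYC1 (-0.93, SE 0.24), the cytochrome b5 gene CYB5 (-0.64, SE 0.20) and CYT1 (-0.60, SE 0.24) came first, with limma adjusted p of 0.52 to 0.70. For CTH2 against CTH1, CYB5 had 0.70 (SE 0.20) and ERG11 -0.63 (SE 0.19), and neither passed (limma adjusted p = 0.42 and 0.45). SCS7 (-0.66, SE 0.21) and the fatty acid desaturase OLE1 (-0.47, SE 0.19) were also wholly lower with CTH2 than with CTH1, with limma adjusted p of 0.45 and 0.58. In that comparison 4 of the 11 lay wholly below, where 7.19% of all genes did, and 1 wholly above, where 6.28% did.

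AFT2, a regulator, passed the limit on dim genes only through the CTH1 group. Its mean signal was 115 there, 95.8 with CTH2 and 95.7 with vector. Of the 12 regulators 11 were tested, with MOT3 too dim. Their median was -0.03 with CTH2 and 0.00 with CTH1, and for 0 of the 11 did the arrays of either plasmid group lie wholly apart from vector, where 6.99% of all genes lay below and 9.48% above with CTH2, and 3.37% and 6.92% with CTH1, so the count of 0 is near the share over all genes. HAP4, the activating subunit of the Hap complex that drives respiratory genes, read 91.03, 95.04 and 135 in the CTH2 arrays, 150, 167 and 142 in the CTH1 arrays and 146, 227 and 131 in the vector arrays. It differed by -0.63 for CTH2 against vector (SE 0.26, limma adjusted p = 0.49), the largest value of a regulator in that comparison, and by -0.54 for CTH2 against CTH1 (SE 0.26, limma adjusted p = 0.69), with the CTH2 arrays wholly below, as they were for HAP2 (-0.30, SE 0.24, limma adjusted p = 0.90). These were 2 of the 11 regulators, where the CTH2 arrays lay wholly below for 7.19% of all genes. The HAP2 interval was -0.81 to 0.21. HAP1, the heme-responsive activator, ROX1, the repressor of low-oxygen genes, and AFT1 had differences of -0.05, -0.08 and -0.09 for CTH2 against vector. With CTH1 the largest values were those of the sterol regulator UPC2 (0.63, SE 0.35) and HAP2 (0.53, SE 0.24), with limma adjusted p of 0.76 and 0.71.

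**Figure D5:**
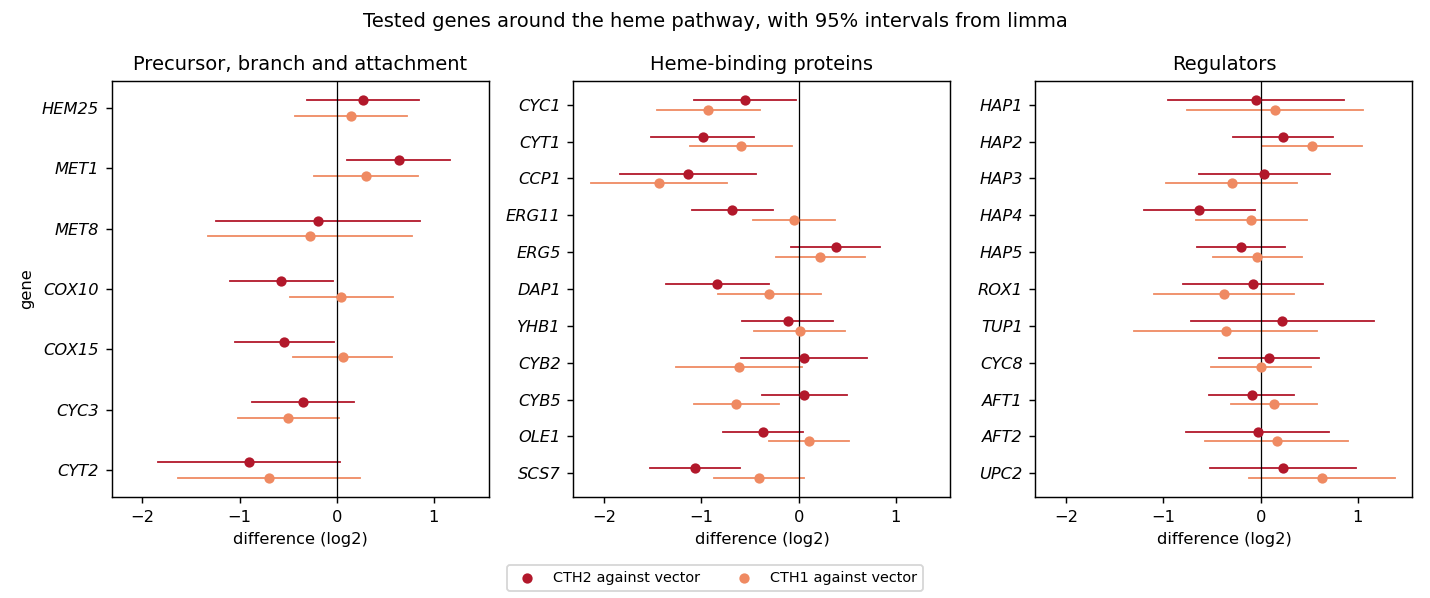
Differences (log2) with 95% intervals from limma for the tested genes of 3 lists around the heme pathway, for CTH2 against vector (dark red) and CTH1 against vector (orange). SCS7, CCP1 and CYT1 have the lowest values with CTH2 among the heme-binding proteins, COX10 and COX15 are lower with CTH2 and near 0 with CTH1.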

How the data were processed

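Total RNA of 9 cultures was labelled with biotin and hybridised to Affymetrix Yeast Genome S98 arrays, per the labels' protocols. The deposited table holds the authors' intensity values, 1 linear signal per probe set and array; MAS5 is the tool that the submitters' processing notes name. Detection calls, probe-level values and sequences were not used here. Of 9335 probe sets, 6504 have 1 gene in the platform annotation, 328 several and 2443 none listed, and 60 are controls. All 6504 matched the RefSeq annotation of assembly R64 by gene number, giving 5656 genes.

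Values under the 10th percentile of named-gene signals (43.2) were set to it before log2 was taken, the brightest probe set of a gene was kept, and genes with a geometric mean above the 25th percentile (98.4) were tested: 4537 genes. Limma (version 3.58.1, R 4.3.3, lmFit, eBayes with an intensity trend) was fitted to all 9 arrays with no covariates. It was also run on simulated data, with independent noise of the same spread on every array. Same-group arrays here differed by an SD of 0.30 to 0.70, so that run does not measure how the p-values behave here. Groups and replicate numbers come from the titles. All 10 members are named. From the side lists, up to 4 genes per list and comparison with the smallest p and no overlap between groups were named, with COX10 and COX15 under CTH1, HEM25, HAP1, ROX1, AFT1, UPC2, HAP4 and HAP2 against vector, CTA1, CTT1, CYC7, MOT3 and the array values of SCS7 and HAP4 added after their values were seen. Members and lists were chosen with earlier results of these data known. Alternatives were 2 normalizations, another floor, an offset of 50, no limit on dim genes, averaged probe sets, separate fits, array weights, a replicate block and each array left out. Arrays carry no read depth, and their number limits the precision.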

Additional observations from a re-analysis of the deposited data

How the results depend on the processing

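The members' differences, their calls and their median (over all tested members, PUG1 included) were recomputed under 18 alternatives; array overlaps, ranks, ratios, nearest profiles and the side lists were not. With all arrays that median was -0.59 for CTH2 against vector, -0.07 for CTH1 against vector and -0.19 for CTH2 against CTH1. The HEM15 difference for CTH2 against vector ran from -1.40 to -1.10 and the call held in 11 of them. The count of members called for CTH2 against vector was 0 with no limit on dim genes (HEM15 limma adjusted p = 0.078) and 0 with the replicate block (0.11). It was 0 to 1 with single arrays left out and 4 with array weights, which added HEM1, HMX1 and PUG1. The share of all genes called moved too, at 0.0354%, 0.022%, 0.022% to 0.573% and 1.65% in these fits, against 0.287% in the first fit. PUG1 passed the limit on dim genes through the plasmid groups, so its call is no support. Array weights also gave 1 call, HMX1 (-0.98), for CTH2 against CTH1, where 0.573% of all genes were called, against 0.022% without weights. No member was called for CTH1 against vector under any of the 18 alternatives, where 0% to 0.022% of all genes were called. The members' median for CTH2 against vector was -0.71 with arrays scaled to a common median, -0.69 with quantile normalization, -0.49 with the offset of 50 and -0.67 to -0.49 with single arrays left out. Scaling to a common median put the median of all genes at -0.06, against 0.07 as deposited. The members' median ran from -0.19 to 0.018 for CTH1 against vector with single arrays left out, and was -0.32 with array weights for CTH2 against CTH1, where leaving out arrays gave -0.26 to -0.19. Signs turned, without a call, for these members. For CTH1 against vector, HEM12 was -0.029 and HMX1 0.0052 with array weights, and leaving out arrays gave -0.024 to 0.56 for HEM12, -0.19 to 0.031 for HEM14 and -0.17 to 0.040 for HMX1. For CTH2 against CTH1, HEM13 was 0.27 with array weights, and leaving out arrays gave -0.56 to 0.22 for HEM13 and -0.10 to 0.43 for HEM12. The cause was not tested. Replicate numbers were not taken as pairs: the deviations of same-numbered arrays correlated between -0.58 and 0.21, and 0 of 9 arrays matched best with an array of its own number. Those of different-numbered arrays in different groups correlated between -0.53 and 0.54. The highest were CTH1 replicate 2 with CTH2 replicate 3 (0.54) and CTH1 replicate 3 with CTH2 replicate 1 (0.51). The fit has no term for deviations shared between groups in this way.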
